A study of Mus musculus with 26 samples.

Results

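The genes followed here were the 32 members of cholesterol and fatty acid synthesis, chosen by name: 18 enzymes of the sterol branch, 8 enzymes of the fatty acid branch, and 6 regulators and carriers of sterol. All 32 had a row among the 20430 gene symbols of the RNA table and among the 19941 symbols of the footprint table, and all 32 passed the filter on low counts in each model. They were measured in NIH3T3 cells, an established mouse embryonic fibroblast line, in 16 libraries of polyA-selected RNA and 10 libraries of ribosome footprints, the mRNA pieces that ribosomes cover. Heat groups were kept at 44 °C for 2 h or at 42 °C for 8 h and had a control of their own. Oxidative stress (H2O2, 2 h or 7 h) and osmotic stress (KCl, 2 h or 7 h) shared a control, and these 5 groups also had footprint libraries. Each of the 13 groups had 2 libraries. Concentrations of H2O2 and KCl were not stated in the sources used here.

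Sterol synthesis starts from acetyl-CoA, passes through mevalonate, isoprenoid and squalene steps, and ends in cholesterol. Fatty acid synthesis uses the same acetyl-CoA, which ATP citrate lyase (Acly) supplies, and adds elongation and desaturation of the chains. Both branches are switched on by the SREBP transcription factors, encoded by Srebf1 and Srebf2, which stay in the endoplasmic reticulum until the escort protein Scap carries them to the Golgi for cleavage. The Insig proteins hold Scap back when sterols are plentiful, and Insig1 is itself a target of the SREBPs. Fibroblasts in culture make their own sterols and draw on lipoproteins in serum.

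RNA libraries held 24441877 to 45244430 expected counts and footprint libraries 1460751 to 5168537, so footprint values carried the larger errors. All 8 fibroblast markers examined, such as Col1a1 and Vim, were above 1 TPM in the median RNA library, while 4 of 5 adipocyte markers (Adipoq, Plin1, Lep and Cidec) had a median of 0 TPM and the fifth, Fabp4, lay at 3.79 to 13.5 TPM. The summed level of 5 epithelial markers was 8.11 to 23.8 TPM and that of 5 immune markers 0.01 to 1.56 TPM. Replicates are those the labels name, and nothing in the labels says that they came from separate cultures, so p-values measure the spread between these libraries, which may be technical. In bulk libraries, fewer cells that make a transcript and less of it per cell cannot be told apart. Levels below are CPM, counts scaled to library size after TMM normalization, and changes are log2 fold changes with their standard error (SE) from the quasi-likelihood test of edgeR. A gene was called where the p-value, adjusted by Benjamini-Hochberg over all genes tested, was at most 0.05. Where genes were picked for large called changes, libraries that do not overlap are a description and no further support. The share of all genes without overlap was not counted.

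Without stress the members spanned a wide range of transcript abundance. On the per-length TPM scale, the median over the 4 control libraries was highest for Scd2, a stearoyl-CoA desaturase, at 1030.0 TPM. Fdps, which makes farnesyl diphosphate, followed at 681 TPM and Hmgcs1, the HMG-CoA synthase of the mevalonate pathway, at 287 TPM. The lowest members were Insig2 at 34.6 TPM, Tm7sf2, a sterol reductase, at 19.1 TPM, and Hsd17b7, a sterol ketoreductase, at 17.4 TPM. Those control values were similar in both experiments for some members and not for others. Fasn, the fatty acid synthase, lay at 134 and 139 TPM in the heat controls and at 135 and 144 TPM in the other controls, whereas Hsd17b7 lay at 13.1 and 13.2 against 22.4 and 21.6 TPM. Each stress was therefore set against the control of its own experiment.

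RefSeq promoter windows (GRCm38.p6; 250 bases before to 50 after a transcription start) were held for 25 of the 32 members and were searched on both strands for CCAAT, which the factor NF-Y binds beside SREBPs, and for TCACNCCAC, a form of the sterol regulatory element. The motifs can share at most 1 letter. CCAAT was found for 20 of the 25 members (80.0%), against 41.1% of all 27025 genes with a window. A gene counted if any of its windows held a match. Counted by window, the shares were 63.6% for members and 37.4% for all genes. By branch the members with a match were 14 of 15 sterol enzymes (all but Acat2), 4 of 5 regulators and carriers (all but Scap) and 2 of 5 fatty acid enzymes. TCACNCCAC was found for 1 of 25 members (4.0%), which was Hmgcs1, against 1.44% of all genes. A match is a description of the letters in these windows and not a bound site. The 250 bases before the start are shown for 4 members whose RNA leads the results below: Hmgcs1, which fell most with H2O2; Nsdhl, a sterol dehydrogenase on the X chromosome, which fell most at 44 °C; Idi1, an isomerase that rose with KCl; and Scap, which rose with H2O2. All lie on the + strand, at chr13:119690101-119690350, chrX:72918271-72918520, chr13:8885356-8885605 and chr9:110333038-110333287 in that order, and capitals mark ATTGG, which is CCAAT on the opposite strand, and in Hmgcs1 also the match to TCACNCCAC, which begins 137 bases before the start.
Hmgcs1: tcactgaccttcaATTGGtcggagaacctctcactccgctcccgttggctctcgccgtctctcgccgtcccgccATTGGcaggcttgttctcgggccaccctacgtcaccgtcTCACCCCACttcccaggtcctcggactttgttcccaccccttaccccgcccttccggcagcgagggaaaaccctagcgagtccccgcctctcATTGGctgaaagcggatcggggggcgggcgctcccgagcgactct
Nsdhl: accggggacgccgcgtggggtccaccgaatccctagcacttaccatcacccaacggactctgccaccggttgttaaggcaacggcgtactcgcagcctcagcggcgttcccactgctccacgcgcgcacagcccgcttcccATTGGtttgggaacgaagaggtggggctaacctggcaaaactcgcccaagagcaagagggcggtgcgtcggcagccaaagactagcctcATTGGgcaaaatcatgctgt
Idi1: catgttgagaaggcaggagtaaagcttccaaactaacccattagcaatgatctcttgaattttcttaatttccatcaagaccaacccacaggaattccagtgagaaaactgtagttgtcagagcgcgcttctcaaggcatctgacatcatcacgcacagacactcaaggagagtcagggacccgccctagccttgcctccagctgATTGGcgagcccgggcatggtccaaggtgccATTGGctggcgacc
Scap: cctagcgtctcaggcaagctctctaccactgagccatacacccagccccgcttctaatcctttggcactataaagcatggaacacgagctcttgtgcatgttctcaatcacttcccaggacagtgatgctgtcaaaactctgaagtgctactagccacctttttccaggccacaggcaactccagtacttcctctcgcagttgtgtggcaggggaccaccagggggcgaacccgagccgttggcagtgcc
The stretches of Hmgcs1, Nsdhl and Idi1 held 3, 2 and 2 matches to CCAAT, and the stretch of Scap held 0. Acat2, Acaca, Elovl6 and Fads2 had no match in their windows either, and their RNA fell with 7 h of H2O2. Stretches were taken from + strand windows, which leaves out Msmo1, the member that rose most with KCl. A link between the motif and the RNA changes was not tested.

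Heat at 44 °C for 2 h lowered most of the synthesis genes. Of the 32 members 27 were called lower, against a background of 35.7% of the 12747 genes tested, and 1 was called higher, against 35.4%. The sterol branch had 17 of 18 enzymes called lower, with a median log2 fold change of -0.89, and the fatty acid branch had 6 of 8, with a median of -0.60, while the median of all genes tested was -0.00034. All 7 enzymes of the mevalonate steps fell, from -0.58 for Mvd, the mevalonate diphosphate decarboxylase, to -1.65 for Mvk, the mevalonate kinase. Of the 11 enzymes from squalene to sterol, Ebp, a sterol isomerase, was the one not called (0.061, SE 0.051). Acly (-0.029, SE 0.038) and Fasn (-0.079, SE 0.040) were the fatty acid enzymes not called. All 8 fibroblast markers were called lower too (median -0.44), with a summed level of 7796 and 8042 TPM against 11088 and 11276 TPM in the controls; 4 of 5 epithelial markers were called higher, summing to 17.4 and 18.9 TPM against 8.9 and 9.38 TPM. Their part in the result was not tested.

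The largest change at 44 °C was that of Nsdhl, whose promoter stretch is printed above. Its RNA lay at 65.2 and 67.2 CPM in the controls and at 10.4 and 10.4 CPM at 44 °C. Both heated libraries were far below both controls, and the log2 fold change was -2.67 (SE 0.060) with an adjusted p of 4.18e-13 (edgeR). Mvk went from 50.9 and 51.9 CPM to 16.7 and 16.1 CPM, a change of -1.65 (SE 0.057), adjusted p 1.60e-11. Fdps went from 356 and 376 CPM to 136 and 130.0 CPM, a change of -1.46 (SE 0.043), adjusted p 5.04e-12. In neither gene did a heated library reach a control. Acat2, which forms acetoacetyl-CoA at the entry of the pathway, changed by -1.44 (SE 0.045). It has a near-copy beside it, Acat3, so its reads may have been split with that gene. Values of Acat2 here and in the comparisons below are therefore uncertain. In the fatty acid branch the largest fall was that of Elovl6, a fatty acid elongase, at -1.14 (SE 0.049).

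After 8 h at 42 °C the changes were small. Here 8 members were called higher (background 31.7%) and 9 lower (background 31.9%), shares near those of all genes, and 15 were not called. No member changed by more than 0.41 in either direction, and the branch medians were 0.015 for sterol and -0.081 for fatty acid enzymes, with -0.014 for all genes. The split depended on the scaling: on log2(TPM + 1) with limma, where the median of all genes lay at -0.16, 2 members were called higher and 21 lower, and the branch medians were -0.17 and -0.27. Directions below are therefore relative to the TMM scaling. The shares of all genes called on log2(TPM + 1) were not counted, so the member calls on that scale have no background here. Hsd17b7 rose from 26.8 and 26.8 CPM to 36.6 and 34.8 CPM, 0.41 (SE 0.058), adjusted p 2.52e-05. Scd2 fell from 2815 and 2878 CPM to 2092 and 2239.6 CPM, -0.39 (SE 0.047), adjusted p 5.78e-06. Dhcr7, the last reductase before cholesterol, fell from 48.3 and 48.5 CPM to 34.9 and 39.4 CPM, -0.39 (SE 0.063), adjusted p 1.08e-04. In each of these 3 genes the heated and control libraries did not overlap. That held for many members, with 14 above and 12 below both controls, but the share of all genes for which it held was not counted.

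Compared directly, 42 °C for 8 h lay above 44 °C for 2 h in 27 members (background 37.9%) and below it in 1 (background 37.2%), although the 2 groups differed in both temperature and time. On log2(TPM + 1), where the median of all genes lay at -0.20, the split was 25 higher and 5 lower. The shares of all genes called on that scale were not counted. With TMM the median difference was 0.97 for sterol and 0.41 for fatty acid enzymes. Nsdhl had the largest difference, 2.44 (SE 0.061). The member called lower was Srebf1 (-0.10, SE 0.039), and its call was lost without replicate 2 of either heat group.

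**Figure D1:**
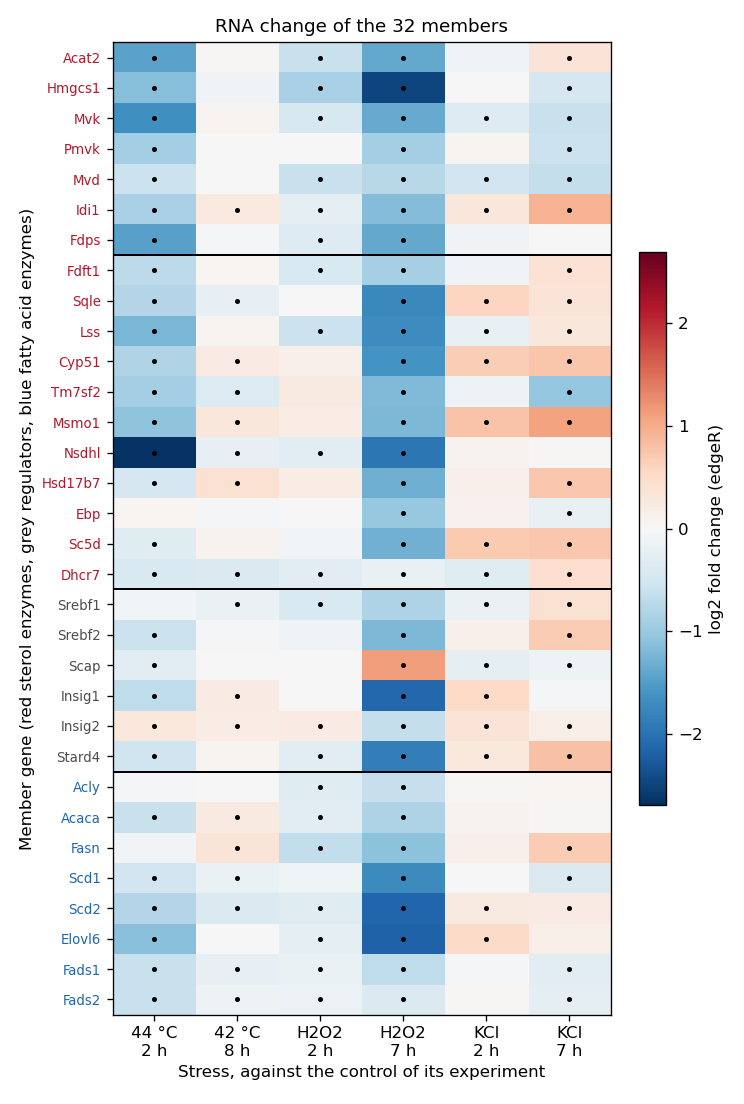
RNA log2 fold change of the 32 members (rows, by role) in the 6 stress groups against the control of their experiment (columns); colour gives the log2 fold change and a dot marks a gene called at an adjusted p of at most 0.05 (edgeR). The columns for 44 °C and for 7 h of H2O2 are blue in nearly every row, with Scap the red row at 7 h of H2O2, and the columns for 42 °C and KCl hold both colours.

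H2O2 for 2 h lowered a part of the members by small amounts. Of 32 members 19 were called lower (background 26.5% of 13256 genes) and 1 higher (background 27.3%). The fatty acid branch had 7 of 8 enzymes called lower and the sterol branch 10 of 18, with medians of -0.28 and -0.26, against -0.00095 for all genes. Hmgcs1 went from 541 and 519 CPM in the controls to 294 and 280.0 CPM, -0.89 (SE 0.061), adjusted p 3.63e-08. Fasn went from 620.2 and 652 CPM to 405 and 403 CPM, -0.65 (SE 0.057), adjusted p 3.97e-07. Acat2 went from 193 and 194 CPM to 130.4 and 124 CPM, -0.61 (SE 0.056), adjusted p 6.85e-07. All 3 genes separated the treated from the control libraries. Of the 32 members, 5 lay above and 21 below both controls in this way, and the share of all genes that did was not counted. Without replicate 1 of the control, 12 members in place of 19 were called lower.

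By 7 h of H2O2 every member was called. RNA of 31 members was lower (background 31.1%) and that of Scap was higher (background for higher calls 39.4%). All 18 sterol enzymes fell, with a median of -1.31, which is 0.405 times the control, and all 8 fatty acid enzymes fell, with a median of -0.97, which is 0.510 times the control. The median of all genes tested was 0.075. The 8 fibroblast markers were all called lower as well (median -1.32), with a summed level of 4147 and 4159 TPM against 9167 and 9240 TPM in the controls, and their part in the result was not tested. Sterol enzymes ranged from -0.20 for Dhcr7 to -2.48 for Hmgcs1, and fatty acid enzymes from -0.38 for Fads2, a desaturase of polyunsaturated chains, to -2.18 for Elovl6.

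Hmgcs1 was the member with the largest fall. Its RNA was at 94.9 and 95.3 CPM after 7 h, against 541 and 519 CPM in the controls, a change of -2.48 (SE 0.065) with an adjusted p of 4.58e-13 (edgeR). Elovl6 was at 33.4 and 31.3 CPM against 151 and 144 CPM, -2.18 (SE 0.085), adjusted p 1.99e-11. Scd2 was at 498 and 524 CPM against 2307 and 2178 CPM, -2.13 (SE 0.066), adjusted p 1.85e-12. Scd2 was the most abundant member in the controls, and both of its treated libraries were far below either control. Its paralog Scd1 changed by -1.72 (SE 0.070); reads from sequence the 2 genes share may be divided between them. Steps after squalene fell as well, among them Sqle, the squalene epoxidase (-1.73, SE 0.067), Lss, the lanosterol synthase (-1.70, SE 0.059), Cyp51, the lanosterol demethylase (-1.61, SE 0.077), and Nsdhl (-1.94, SE 0.086).

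Scap went the other way. Its RNA was at 99.9 and 99.1 CPM in the controls, 96.9 and 99.6 CPM after 2 h and 213 and 223 CPM after 7 h of H2O2. Both libraries of 7 h were above all other libraries of the experiment, with a change of 1.13 (SE 0.054), adjusted p 1.93e-10. Stard4, a carrier that moves sterol through the cytosol, fell in the same libraries from 140.1 and 139 CPM to 37.5 and 39.0 CPM, -1.87 (SE 0.066). From 2 h to 7 h of H2O2, 29 members fell (background 36.1%) and 1, Scap, rose (background 37.3%). Mvd (-0.14, SE 0.10) and Dhcr7 (0.078, SE 0.073) were the members without a call between these times.

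**Figure D2:**
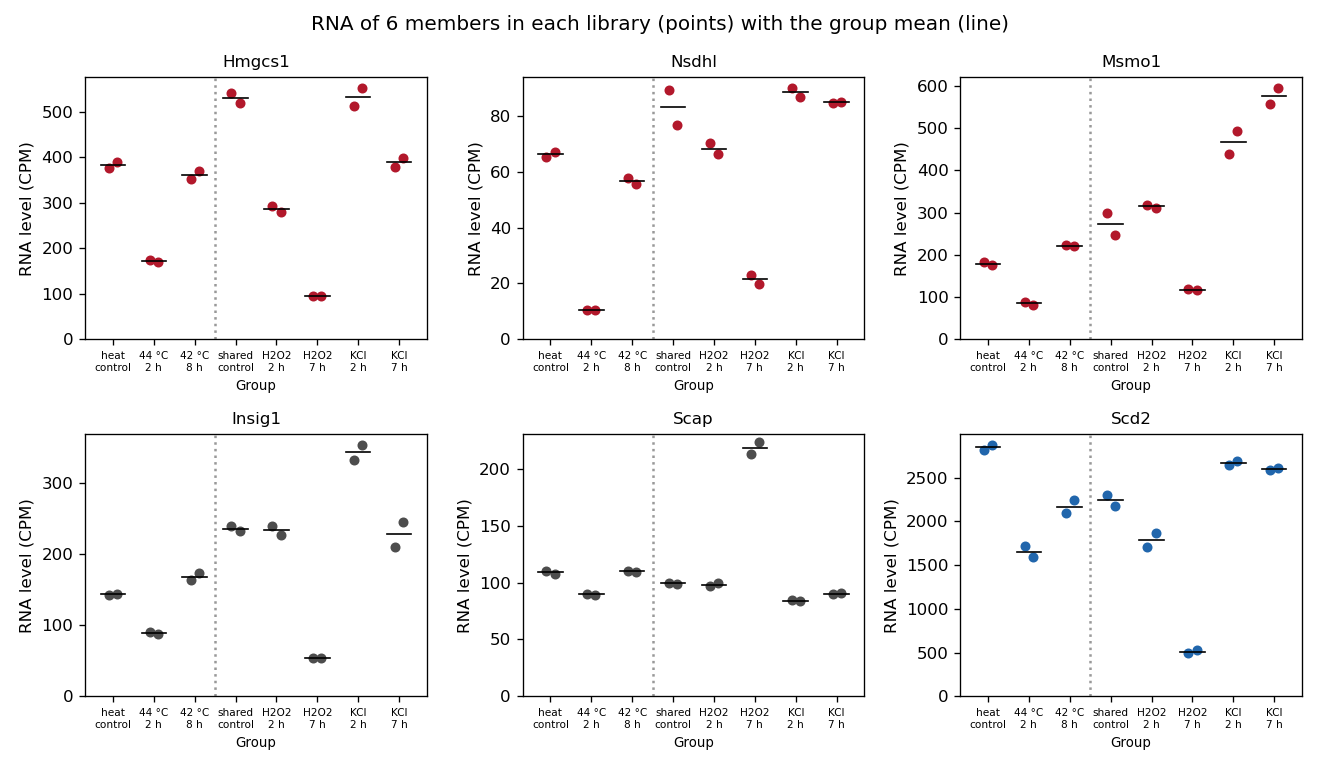
RNA level (CPM, from 0) of Hmgcs1, Nsdhl, Msmo1, Insig1, Scap and Scd2 in each of 16 RNA libraries; points are libraries, lines are group means, and the dotted line parts the heat experiment from the H2O2/KCl experiment, whose control is marked shared control. Nsdhl is lowest at 44 °C; Hmgcs1, Msmo1, Insig1 and Scd2 are each below their own control in the 44 °C and 7-h H2O2 groups, and Scap is highest with 7 h of H2O2.

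KCl for 2 h gave 10 members called higher (background 27.2%) and 6 lower (background 27.0%), numbers near the shares of all genes. Branch medians were 0.036 for sterol and 0.066 for fatty acid enzymes, against 0 for all genes. On log2(TPM + 1) they were -0.056 and -0.027, against -0.068 for all genes. The 5 sterol enzymes called higher were Idi1, Sqle, Cyp51, Msmo1 and Sc5d, and the 4 called lower were Mvk, Mvd, Lss and Dhcr7. Msmo1, a sterol methyl oxidase, went from 299.8 and 246 CPM to 439 and 494 CPM, 0.77 (SE 0.085), adjusted p 3.49e-06. Sc5d, a sterol desaturase, went from 169.6 and 148 CPM to 251 and 270.2 CPM, 0.72 (SE 0.074), adjusted p 1.86e-06. Cyp51 went from 431 and 380.0 CPM to 611 and 665 CPM, 0.65 (SE 0.074), adjusted p 4.56e-06. Treated libraries of the 3 genes lay above both controls. In the fatty acid branch, Elovl6 (0.52, SE 0.077) and Scd2 (0.25, SE 0.063) rose, and 0 enzymes were called lower.

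At 7 h of KCl more members were called. There were 16 called higher (background 37.2%), 10 lower (background 31.6%, about the share of all genes) and 6 not called. The sterol branch had 10 enzymes higher and 6 lower, with a median of 0.32. The fatty acid branch had 2 higher and 3 lower, with a median of 0.045, and the median of all genes was 0.039. On log2(TPM + 1) the fatty acid median was -0.056, against -0.028 for all genes. Msmo1 reached 557 and 594 CPM, 1.08 (SE 0.085), adjusted p 6.83e-08. Idi1 went from 313 and 279 CPM in the controls to 574 and 564 CPM, 0.94 (SE 0.071), adjusted p 4.26e-08. Tm7sf2 fell from 9.04 and 9.38 CPM to 4.07 and 4.90 CPM, -1.05 (SE 0.11), adjusted p 1.42e-06; it overlaps the gene Vps51 in RefSeq, and no source used here gives the strand setting of the counting. In all 3 genes the groups did not overlap.

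By step of the pathway, the calls at 7 h of KCl were as follows. Of the 7 mevalonate enzymes, Acat2 and Idi1 rose, Hmgcs1, Mvk, Pmvk and Mvd fell, and Fdps was not called. Pmvk, the phosphomevalonate kinase, changed by -0.59 (SE 0.081), beside -0.61 (SE 0.085) for Mvk and -0.65 (SE 0.10) for Mvd. Of the 11 enzymes from squalene to sterol, 8 rose, Tm7sf2 and Ebp (-0.19, SE 0.073) fell, and Nsdhl was not called (0.029, SE 0.079). Among the fatty acid enzymes Fasn and Scd2 rose, whereas Scd1 (-0.38, SE 0.067), Fads1 (-0.28, SE 0.061) and Fads2 (-0.27, SE 0.060) fell. Between 2 h and 7 h of KCl, 11 members rose (background 35.1%) and 12 fell (background 33.7%). Hmgcs1 was among those that fell (-0.46, SE 0.061), and Dhcr7 had the largest rise (0.79, SE 0.073).

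The 2 stresses that shared a control were also compared with each other. After 2 h, 21 members were lower with H2O2 than with KCl (background 24.2%) and 2 were higher (background 27.0%), Tm7sf2 (0.37, SE 0.10) and Scap (0.22, SE 0.056). After 7 h, 28 members were lower (background 37.4%) and 1, Scap, was higher (1.27, SE 0.055; background 41.0%). The median difference at 7 h was -1.85 for sterol and -1.11 for fatty acid enzymes. Stard4 differed most at 7 h, -2.66 (SE 0.068), followed by Cyp51, -2.36 (SE 0.078), and Scd2, -2.35 (SE 0.066).

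The regulators did not all move with the enzymes. Srebf1, whose product is best known for fatty acid genes, lay at 199 and 199 CPM in the heat controls, 187 and 191 CPM at 44 °C and 177 and 175 CPM at 42 °C. Its change at 44 °C was not called (-0.076, SE 0.039), while that at 42 °C was (-0.18, SE 0.039). In the other experiment it lay at 188 and 188 CPM in the controls, 143 and 141 CPM at 2 h and 106 and 107 CPM at 7 h of H2O2, and 174 and 159 CPM at 2 h and 246 and 254 CPM at 7 h of KCl. Its libraries at 7 h of H2O2 were the lowest and those at 7 h of KCl the highest of that experiment, with changes of -0.82 (SE 0.060) and 0.41 (SE 0.059). The small fall at 2 h of KCl (-0.17, SE 0.059) lost its call without replicate 2 of KCl at 2 h (-0.11), without replicate 1 of the control (-0.17) and without replicate 2 of the control (-0.18). Srebf1 overlaps the protein-coding gene Rai1 in RefSeq, so its values are uncertain.

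Srebf2, whose product is best known for sterol genes, lay at 519 and 539 CPM in the heat controls, 351 and 352 CPM at 44 °C and 498 and 521 CPM at 42 °C. It fell at 44 °C (-0.59, SE 0.041) and was not called at 42 °C (-0.055, SE 0.040). In the other experiment it lay at 577 and 585 CPM in the controls, 545 and 539 CPM at 2 h and 251 and 251 CPM at 7 h of H2O2, and 648 and 621 CPM at 2 h and 898 and 959 CPM at 7 h of KCl. It fell with 7 h of H2O2 (-1.21, SE 0.058) and rose with 7 h of KCl (0.68, SE 0.057), and at these times neither treated pair overlapped the controls.

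Insig1 lay at 143 and 145 CPM in the heat controls, 90.3 and 88.4 CPM at 44 °C and 164 and 174 CPM at 42 °C, with called changes of -0.69 (SE 0.044) and 0.23 (SE 0.043). In the other experiment it lay at 240.1 and 232 CPM in the controls, 240.4 and 228 CPM at 2 h and 54.7 and 54.0 CPM at 7 h of H2O2, and 334 and 354 CPM at 2 h and 210.1 and 246 CPM at 7 h of KCl. It was the member with the largest fall from 2 h to 7 h of H2O2 (-2.11, SE 0.078), and it was up at 2 h of KCl (0.54, SE 0.072) but not called at 7 h (-0.051, SE 0.073). Insig2, which also encodes an Insig protein, lay at 38.8 and 37.3 CPM in the heat controls, 46.1 and 46.5 CPM at 44 °C and 46.3 and 41.2 CPM at 42 °C. It was the member called higher at 44 °C (0.28, SE 0.060), where Insig1 fell.

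In the H2O2/KCl experiment Insig2 lay at 41.9 and 38.4 CPM in the controls, 47.4 and 46.0 CPM at 2 h and 24.7 and 26.7 CPM at 7 h of H2O2, and 50.9 and 51.9 CPM at 2 h and 46.2 and 44.8 CPM at 7 h of KCl. It was the member called higher at 2 h of H2O2 (0.22, SE 0.067), a call that was lost without replicate 1 of that group (0.13) and without replicate 2 of the control (0.15). At 7 h of H2O2 it was lower than the controls (-0.65, SE 0.071). Its rise at 7 h of KCl (0.18, SE 0.068) was lost without either library of that group (0.16 and 0.20) or without replicate 2 of the control (0.12), and its rise at 42 °C (0.20, SE 0.061) without replicate 1 at 42 °C (0.11) or replicate 2 of the heat control (0.18). Fasn lay at 608 and 631 CPM in the heat controls, 598 and 575 CPM at 44 °C and 788 and 800.4 CPM at 42 °C, where it rose (0.36, SE 0.040). In the other experiment Fasn was at 300.1 and 293 CPM at 7 h of H2O2 (-1.10, SE 0.058), at 693 and 709 CPM at 2 h of KCl (0.14, SE 0.057, not called) and at 1000.3 and 1054 CPM at 7 h of KCl (0.69, SE 0.057).

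Branch means per library put the sterol and fatty acid enzymes side by side. The mean log2 CPM of the 18 sterol enzymes was 6.67 and 6.69 in the heat controls and 5.73 and 5.72 at 44 °C, and that of the 8 fatty acid enzymes was 8.76 and 8.77 in the controls and 8.25 and 8.19 at 44 °C. The difference, sterol minus fatty acid, was -2.09 and -2.08 in the controls and -2.52 and -2.47 at 44 °C, so the sterol mean was lower relative to the fatty acid mean in both heated libraries. At 42 °C it was -2.03 and -2.03. With 7 h of H2O2 it was -1.69 and -1.73, against -1.59 and -1.65 in the controls, although each branch mean was at least 1 log2 unit below both controls. With 7 h of KCl it was -1.52 and -1.48. In footprints the difference at 7 h of H2O2 was -1.50 and -1.56, against -1.71 and -1.72 in the controls, the opposite direction to RNA. The other footprint groups were at -1.45 and -1.44 (2-h H2O2), -1.58 and -1.54 (2-h KCl) and -1.46 and -1.61 (7-h KCl). With 2 libraries a group these differences were not tested.

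**Figure D3:**
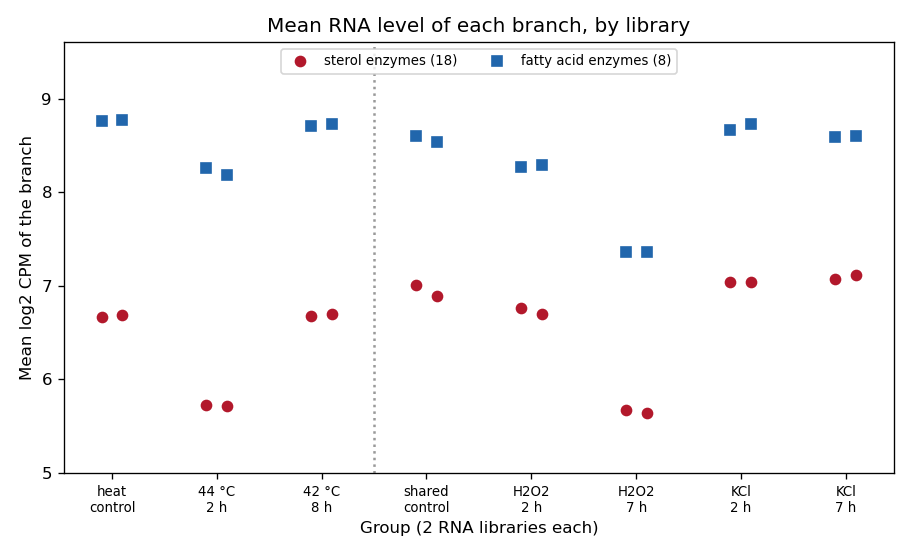
Mean log2 CPM of the 18 sterol enzymes (circles) and of the 8 fatty acid enzymes (squares) in each RNA library, by group, with the dotted line between the heat and the H2O2/KCl experiment. Both branches are lowest at 7 h of H2O2, and the distance between circles and squares is widest at 44 °C (-2.52 and -2.47).

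Footprints of most members also fell at 7 h of H2O2. Footprints of 23 members were called lower (background 10.6% of 10545 genes) and those of 1, Scap, higher (background 17.2%). The medians were -0.85 for the 18 sterol enzymes, of which 13 were called lower, and -1.13 for the 8 fatty acid enzymes, of which 7 were, against 0.0075 for all genes. Footprints of Elovl6 were at 98.1 and 110.5 CPM in the controls and 31.3 and 18.4 CPM after 7 h, -2.06 (SE 0.29), adjusted p 1.70e-04. Those of Hmgcs1 went from 382 and 382 CPM to 107 and 89.0 CPM, -1.96 (SE 0.19), adjusted p 1.03e-05. Those of Scap rose from 61.9 and 50.3 CPM to 129 and 102 CPM, 1.04 (SE 0.25). None of these 3 genes had overlapping groups. Without replicate 2 at 7 h of H2O2, 15 members in place of 23 were called lower, and Scap lost its call without replicate 1 of that group or replicate 2 of the control.

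Regulator footprints at 7 h of H2O2 fell for Srebf2, from 567 and 515 CPM to 272 and 255 CPM (-1.03, SE 0.25), a call lost without replicate 2 at 7 h of H2O2 (-1.03, adjusted p 0.0556, edgeR). They fell for Insig1, from 54.5 and 57.7 CPM to 22.5 and 25.3 CPM (-1.23, SE 0.25). Srebf1, at 142 and 181 CPM in the controls and 141 and 126 CPM after 7 h (-0.27, SE 0.23), and Insig2, at 14.9 and 8.24 CPM and 11.4 and 9.22 CPM (-0.18, SE 0.36), were not called. Footprints of Fasn went from 751 and 1168 CPM to 411 and 376 CPM (-1.29, SE 0.30), a call lost without replicate 2 of the control (-0.94, adjusted p 0.0590, edgeR). From 2 h to 7 h of H2O2, footprints of 24 members changed (background in either direction 29.8%), 23 of them downwards. Scd2 fell (-2.20, SE 0.22) and Scap rose (1.62, SE 0.26) in this comparison.

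**Figure D4:**
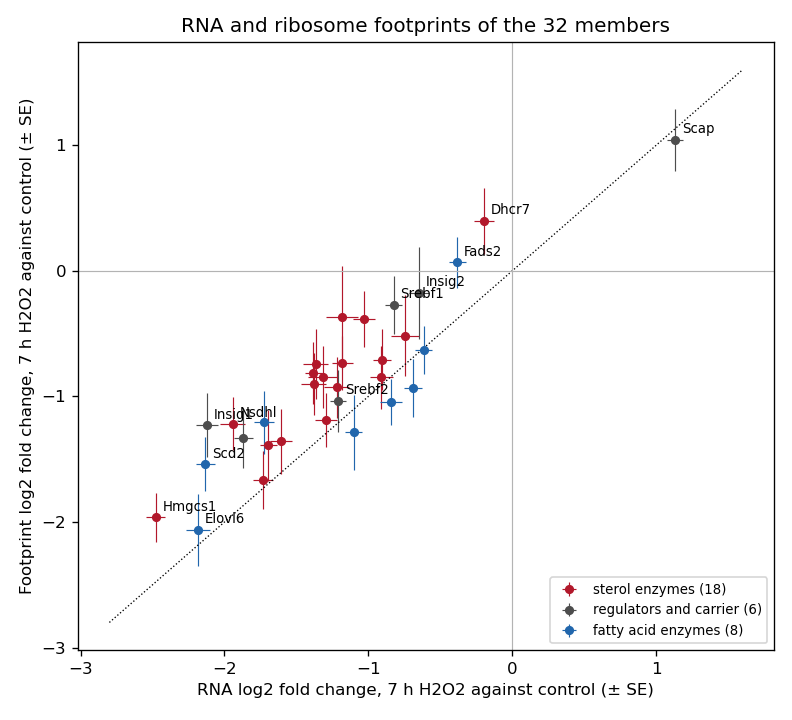
Log2 fold change of RNA (x axis) and of footprints (y axis) at 7 h of H2O2 against control for the 32 members, with bars of 1 SE and the dotted line of equal change. Most members lie in the lower left on or above the line, Hmgcs1 (-2.48 in RNA, -1.96 in footprints) and Elovl6 (-2.18 and -2.06) at its end, and Scap lies alone in the upper right.

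The other footprint groups showed few calls. At 2 h of H2O2, edgeR called 0 members higher (background 1.14%) and 0 lower (background 0.768%); 7 had an unadjusted p under 0.05, DESeq2 called 1, and limma on log2(TPM + 1) called 0. At 2 h of KCl there was 1 member higher (background 1.79%), Hmgcs1, and 1 lower (background 5.06%), Scap. Hmgcs1 footprints were at 586 and 653 CPM, against 382 and 382 CPM in the controls (0.70, SE 0.18, adjusted p 0.0401), and Scap footprints at 28.5 and 19.8 CPM against 61.9 and 50.3 CPM (-1.21, SE 0.27, adjusted p 0.0172). The libraries of these groups did not overlap, but the call of Hmgcs1 was lost when any of the 4 libraries was left out (0.62 to 0.77) and that of Scap without replicate 2 of KCl at 2 h (-0.98) or replicate 1 of the control (-1.01).

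At 7 h of KCl, 5 members had more footprints (background 10.5%) and 0 fewer by edgeR (background 9.83%; DESeq2 and limma also called 0 lower). They were Idi1 (0.85, SE 0.21), Fdft1, the squalene synthase (0.75, SE 0.24), Msmo1, Sc5d (0.65, SE 0.21) and Stard4. Fdft1 overlaps the protein-coding gene Ctsb in RefSeq, and its value is uncertain for that reason. Stard4 went from 32.5 and 26.7 CPM to 57.5 and 59.0 CPM (0.97, SE 0.22, adjusted p 0.00776), and Msmo1 from 483 and 411 CPM to 1025 and 663 CPM (0.92, SE 0.24, adjusted p 0.0168). Treated libraries of both lay above the controls. All 5 calls were lost without replicate 2 of the control, where Stard4 stood at 0.84 and Msmo1 at 0.81. Without replicate 1 of the control 3 members were called higher, and without replicate 1 of KCl at 7 h 1 was, with Msmo1 at 0.57.

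Between 2 h and 7 h of KCl, footprints of 3 members changed (background in either direction 20.6%): Stard4 rose (1.04, SE 0.22), while Hmgcs1 (-0.59, SE 0.18) and Pmvk (-0.99, SE 0.25) fell. Without replicate 2 of KCl at 2 h, 0 of the 3 were called. H2O2 and KCl at 2 h differed in 2 members (background in either direction 5.12%), Hmgcs1 (-1.05, SE 0.19) and Acaca, the acetyl-CoA carboxylase (-0.83, SE 0.18), which overlaps the protein-coding genes Tada2a and Gm11437 in RefSeq, so its value is uncertain. That number was 0 without replicate 2 of KCl at 2 h and 1 without replicate 2 of H2O2 at 2 h. At 7 h the same comparison gave 24 members (background in either direction 41.2%), of which 23 were lower with H2O2 and Scap was higher (1.59, SE 0.26).

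Translational efficiency, the footprints of a gene relative to its RNA, was called for few members in any group. At 2 h of H2O2 it was higher for 2 members (background for higher calls 3.98% of 10480 genes), Acat2 (0.96, SE 0.25, adjusted p 0.0194) and Scd2 (0.95, SE 0.22, adjusted p 0.00988). Footprints of Scd2 were at 3748 and 3088 CPM at 2 h, against 2027 and 2287 CPM in the controls, while its RNA was at 1702 and 1871 CPM against 2307 and 2178 CPM. For Acat2 the footprints were at 213 and 128 CPM against 112 and 142 CPM, and 1 of the treated libraries lay between the controls. The higher treated value came from replicate 1, the shallowest footprint library (1460751 expected counts). The lower came from replicate 2, the deepest (5168537). Reads of Acat2 may also have been split with its near-copy Acat3, so its values are uncertain. The number of members called moved between 1 and 7 as libraries were left out, 7 without replicate 2 of the H2O2 footprints at 2 h and 6 without replicate 2 of the control footprints. The call of Acat2 was lost in 6 of the 8 cases (0.58 to 1.00), all but those 2.

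At 7 h of H2O2 it was higher for Insig1 (0.89, SE 0.26, adjusted p 0.0401) and Nsdhl (0.73, SE 0.21, adjusted p 0.0382), again 2 members (background for higher calls 4.69%). Their RNA and their footprints both fell, so the difference is that between the RNA change of -2.12 and the footprint change of -1.23 for Insig1, and between -1.94 and -1.22 for Nsdhl. The estimates were above 0 for all 18 sterol enzymes, with a median of 0.46, and for 4 of 8 fatty acid enzymes, with a median of 0.056, against 0.057 for all genes; 1 sterol enzyme was called. The call of Insig1 was lost when any of the 8 libraries was left out (0.80 to 0.96), and that of Nsdhl without 6 of the 8 (0.63 to 0.76), all but replicate 1 of RNA at 7 h of H2O2 and replicate 2 of the control RNA.

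With KCl at 2 h, 2 members were called (background in either direction 12.8%), Hmgcs1 upwards (0.68, SE 0.17, adjusted p 0.0154) and Scap downwards (-0.98, SE 0.26, adjusted p 0.0176). RNA of Hmgcs1 was at 514 and 553 CPM against 541 and 519 CPM and overlapped the controls, whereas its footprints did not overlap them. The call of Hmgcs1 was lost without replicate 2 of the KCl footprints (0.60), replicate 1 of the KCl RNA (0.63) or replicate 1 of the control RNA (0.65). That of Scap was lost without replicate 2 of the KCl footprints (-0.75), replicate 1 of the control footprints (-0.82), or either library of control RNA (-0.98 and -0.97). At 7 h of KCl, edgeR called 0 members (background in either direction 5.57%), with 2 at an unadjusted p under 0.05, and limma voom called 1.

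Genes of neighbouring pathways, taken from 4 lists, were called in both directions at 7 h of H2O2, where 39.4% of all genes tested rose and 31.1% fell. Of 8 genes of SREBP processing and turnover, 2 rose and 2 fell, with a median of 0.018, and Mbtps1, a protease that cleaves SREBPs, changed by -0.24 (SE 0.059). Of 10 genes that use isoprenoids, 2 rose and 2 fell, with a median of -0.039. Of 10 genes of sterol export, uptake and storage, 4 rose and 4 fell, with a median of 0.0029, and the rises included Abcg1, a sterol exporter (2.57, SE 0.26). Of 19 further fatty acid genes tested, 6 rose and 9 fell, with a median of -0.011; Lpin1, a phosphatidate phosphatase, rose (1.96, SE 0.065) and Acsl3, an acyl-CoA synthetase, fell (-1.45, SE 0.074). In footprints of the same group these lists had 0 rising and 0 falling, 1 and 1, 3 and 1, and 3 and 5, in that order, while 17.2% of all genes rose and 10.6% fell.

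The same lists had calls in the other RNA groups that are set beside the shares of all genes. At 44 °C (35.4% of all genes higher, 35.7% lower) the numbers rising and falling were 2 and 3 for SREBP processing, 3 and 4 for isoprenoid use, 1 and 3 for export and storage, and 4 and 10 for further fatty acid genes. At 42 °C (31.7% and 31.9%) they were 2 and 4, 6 and 2, 1 and 5, and 7 and 6. At 2 h of H2O2 (27.3% and 26.5%) they were 3 and 0, 1 and 1, 3 and 3, and 6 and 6. Acacb, a paralog of Acaca, rose with H2O2 for 2 h (2.90, SE 0.21) and with KCl for 2 h (1.88, SE 0.23) and 7 h (1.45, SE 0.24), whereas Acaca was not called with KCl at either time. At 2 h of KCl (27.2% and 27.0%) the numbers were 2 and 2, 1 and 2, 3 and 1, and 8 and 5, and at 7 h (37.2% and 31.6%) they were 3 and 4, 4 and 6, 3 and 3, and 6 and 8. Coq2, of ubiquinone synthesis, fell at 7 h of KCl (-1.66, SE 0.094), and Abcg1 rose (3.37, SE 0.24).

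The authors also deposited calls of downstream-of-gene transcripts (DoGs), made where transcription runs past a gene's end, for each RNA library over 6399 pairs of genes that neighbour each other. Of these pairs 19 had a member upstream and 7 had a member downstream. Over the 16 libraries the 19 pairs had 76 DoG calls of 304 possible, while the share over all pairs was 28.5%. Fads2 had a DoG call in all 16 libraries and Cyp51 in 13, and the other 17 upstream members in 1 to 7. By group the share was 42.1% at 2 h of H2O2 (35.1% over all pairs), 39.5% at 2 h of KCl (33.3%), 15.8% at 7 h of H2O2 (20.3%) and 21.1% after 7 h of KCl (23.6%), beside 18.4% in their controls (24.7%). In the heat experiment it was 26.3% at 44 °C (32.7%), 21.1% at 42 °C (31.2%) and 15.8% in the controls (27.2%). Read-in, which marks transcription from an upstream gene that reaches its downstream neighbour, was called for 0 of the 26 pairs with a member in any library; over all pairs the share was 1.38%, so few calls could be seen in 26 pairs. Scap, the member that rose at 7 h of H2O2, was in none of the 26 pairs.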

How the data were processed

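Per the submitters' processing notes, reads were handled with STAR, RSEM and Bowtie on the mouse build mm10; the sources used here state no versions, annotation or strand setting. The expected counts the authors deposited for each gene were rounded to whole numbers before use. The deposited TPM values are scaled by transcript length and library size. The authors also deposited DoG and read-in calls and a read-in estimate, a ratio whose formula the sources used here do not state and of which no value is printed. Another 12 columns could be tied to no sample by its labels and were left out. Libraries held 24441877 to 45244430 expected counts for RNA and 1460751 to 5168537 for footprints.

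Counts were modelled in edgeR 4.0.16 under R 4.3.3 (glmQLFit and glmQLFTest, TMM, filterByExpr, Benjamini-Hochberg over all genes tested), separately for heat RNA (12747 genes), H2O2/KCl RNA (13256), footprints (10545) and, as an interaction over both kinds of library with TMM within each kind, translational efficiency (10480). Groups of a model shared one estimate of the spread. Alternatives used limma 3.58.1 (TPM with a pseudocount of 1), DESeq2 1.42.0, other scaling, filters and samples. The scripts were tested on simulated counts. CPM values were normalized by TMM, and branch means used the log2 of CPM with 0.5 added to each CPM value. Values in every library were printed for up to 3 members with the largest called change in each RNA comparison with control, up to 2 in footprints and efficiency (at least 10 footprint counts in each group), and for Srebf1, Srebf2, Insig1, Insig2 and Fasn; other genes were named as examples. Up to 3 genes with the largest called change were named per neighbouring-pathway list (48 genes in all). Members and lists were chosen with earlier results of these data known, and the other comparisons of times and stresses reuse the same libraries. Sequences and coordinates are from RefSeq (GRCm38.p6, the assembly of mm10).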

Additional observations from a re-analysis of the deposited data

Results flagged for a closer look

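In 4 members the RNA change was called in opposite directions at the 2 times of a stress, and the difference between the times was itself called (edgeR, Benjamini-Hochberg adjusted p). Opposite called changes against the same controls make a called difference nearly certain, so its adjusted p is no further support. The share of all genes with this pattern was not counted. The change of Insig2 with H2O2 was 0.22 at 2 h and -0.65 at 7 h, a difference of -0.87 with an adjusted p of 6.68e-08. The change of Lss with KCl was -0.20 at 2 h and 0.30 at 7 h, a difference of 0.50 with an adjusted p of 2.42e-06. That of Dhcr7 was -0.33 at 2 h and 0.46 at 7 h, a difference of 0.79 with an adjusted p of 3.15e-07. That of Srebf1 was -0.17 at 2 h and 0.41 at 7 h, a difference of 0.59 with an adjusted p of 7.66e-07. The calls at 2 h of Insig2 and of Srebf1 were lost when single libraries were left out, as given above for each.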

How the results depend on the processing

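RNA counts of called members in the 6 stress groups stayed within 1.5 times of those given under other size factors, no filter, the groups compared alone, the replicate block, DESeq2 and limma on log2(TPM + 1). A further threshold of 1 on the size of the log2 fold change left 8 members at 44 °C, 0 at 42 °C, 0 with 2-h H2O2, 0 with 2-h KCl and 2 with 7-h KCl. It left 10 between 42 °C and 44 °C, 18 between the times of H2O2, 0 between those of KCl and 0 between the stresses at 2 h. For footprints it left 15 with 7-h H2O2, 1 with 2-h KCl and 0 with 7-h KCl, 1 between the times of KCl and 1 between the stresses at 2 h, and for translational efficiency 0 with 2-h H2O2, 0 with 7-h H2O2 and 0 with 2-h KCl. The shares of all genes past this further threshold were not counted. Numbers are not given here for RNA at 7 h of H2O2 or between the stresses at 7 h. The medians of the 32 members there were -1.21 and -1.54. Nor are they given for footprints between the times of H2O2 or between the stresses at 7 h, with medians of -1.03 and -1.30.

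On log2(TPM + 1) the median of all genes was 0.0525 at 44 °C, -0.16 at 42 °C, 0.00046 with 7-h H2O2, -0.068 with 2-h KCl and -0.028 with 7-h KCl. In footprints it was -0.062 with 2-h H2O2 and 0.11 with 7-h H2O2. On the same scale the median of the sterol branch was -0.80 at 44 °C, -0.17 at 42 °C, -0.056 with 2-h KCl and 0.23 with 7-h KCl. In footprints the sterol median was 0.15 with 2-h H2O2 and -0.70 with 7-h H2O2. That of the fatty acid branch was -0.53 at 44 °C, -0.27 at 42 °C, -1.03 with 7-h H2O2, -0.027 with 2-h KCl, -0.056 with 7-h KCl, and -1.01 in footprints with 7-h H2O2; with the size factors of DESeq2 it was -1.01 in RNA at 7 h of H2O2. Called members in footprints were then 0 at 2 h of KCl, 2 at 7 h, and 1 between these times. DESeq2 called 1 footprint member at 2 h of H2O2. With the groups compared alone, 1 footprint member was called at 2 h of KCl, 1 between the stresses at 2 h, and 4 in translational efficiency at 7 h of H2O2. Without a filter, translational efficiency gave 5 with 2-h H2O2 and 1 with 7-h H2O2, and limma voom gave 0 with 7-h H2O2 and 1 with 7-h KCl. The sterol motif with any 1 letter changed was found for 44.0% of members, against 26.7% of all genes.

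When single libraries were left out, the number of called members ran from 0 to 1 for footprints at 2 h of KCl, 0 to 6 at 7 h of KCl, 0 to 2 between the times of KCl and 0 to 2 between the stresses at 2 h. For translational efficiency it ran from 1 to 7 and 0 to 2 over the times of H2O2, and from 0 to 4 and 0 to 1 over those of KCl (2 h first). Where a group was left with 1 library, that library was assumed to vary like the other groups. RNA medians of the sterol branch ran from -0.91 to -0.84 at 44 °C, 0.014 to 0.059 at 42 °C, -0.33 to -0.17 with 2-h H2O2, -1.37 to -1.25 with 7-h H2O2, and -0.041 to 0.077 with 2-h KCl. Those of the fatty acid branch ran from -0.61 to -0.55 at 44 °C, -0.098 to -0.064 at 42 °C and -1.09 to -0.93 at 7 h of H2O2. Footprint medians of the sterol branch ran from 0.15 to 0.30 and -0.99 to -0.87 with H2O2, and 0.33 to 0.49 and 0.15 to 0.69 with KCl, at 2 h and 7 h, and those of the fatty acid branch from -0.029 to 0.14, -1.22 to -1.0, 0.14 to 0.41 and -0.12 to 0.29 in the same order. Medians of translational efficiency ran from 0.28 to 0.56 (7-h H2O2), 0.17 to 0.39 (2-h KCl) and -0.18 to 0.44 (7-h KCl) for sterol enzymes, and from -0.059 to 0.21, -0.038 to 0.19 and -0.16 to 0.24 for fatty acid enzymes in the same order. The causes of these shifts were not tested.

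Deviations of same-numbered libraries did not correlate above 0.1 in every pair of groups (correlations of -0.0247 to 0.117 for heat RNA, -0.0531 to 0.0537 for H2O2/KCl RNA and -0.384 to 0.417 for footprints), so the numbers were not taken to pair the libraries, although single pairs of footprint groups deviated together. With the replicate block, members called went from 17 to 18 at 42 °C, 16 to 17 at 2 h of KCl, 24 to 25 for footprints between the times of H2O2 and 2 to 3 for translational efficiency at 2 h of H2O2, and Fasn became called at 2 h of KCl (0.14). Summing rows of older symbols was not run because no member has such a row. Footprint depth limits what can be called, and a member without a call there is not shown to be unchanged.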
